A study of Mus musculus with 9 samples.

Results

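The regions described here are places in the mouse genome that carry the active histone mark H3K27ac in blood stem and progenitor cells and a peak of the chromatin protein DEK, but no peak of the acetylation mark H3K9ac. H3K27ac peaks of control and Dek-deleted cells on chromosomes 1 to 19 were joined wherever they overlapped by at least 1 bp, which gave 16611 regions. Of these, 460 (2.77%) overlapped a peak of any of the 3 DEK libraries and no H3K9ac peak of either genotype. Another 161 regions had both DEK and H3K9ac, 175 had H3K9ac without DEK, and 15815 had neither. DEK and H3K9ac presence chose the members, so both are given as a description and no test is made on them: members were chosen by the presence of these peaks. Over all regions 3.74% had a DEK peak of any library and 2.02% an H3K9ac peak.

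The 9 CUT&Tag libraries came from bone marrow of C57BL/6 mice aged 3 months (given elsewhere in the labels as 12 weeks). All mice carried 2 floxed Dek alleles (Dekfl/fl). The control group (fl) had no Cre, and the Dek-deleted group (cKO, Dekfl/fl,Tie2-Cre) expressed Cre from Tie2, which is active in endothelial cells as well as in the blood lineage. DEK (3 fl libraries) and H3K9ac (1 fl, 1 cKO) were profiled in about 20000 sorted haematopoietic stem cells (HSC), and H3K27ac and H3K4me3 (each 1 fl, 1 cKO) in about 50000 LSK cells, a broader gate of stem and progenitor cells. An overlap between DEK and H3K27ac therefore joins 2 cell gates, and no DEK library of cKO cells was among the 9. With 1 library per mark and genotype, no difference between fl and cKO has a replicate check. The labels do not say whether the 3 DEK libraries came from separate mice.

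DEK is an abundant non-histone protein that binds DNA and histones and affects how chromatin is folded and opened. H3K27ac lies on active promoters and on active enhancers, the regulatory elements that act on genes from a distance, whereas H3K4me3 is above all a promoter mark. H3K9ac is also laid down on active chromatin. Only 2.02% of all H3K27ac regions had an H3K9ac peak here, so lacking this peak was the usual state. Among the 621 regions with DEK, 161 had an H3K9ac peak.

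The lists held 1962, 2008 and 5839 DEK peaks on chromosomes 1 to 19 in replicates 1 to 3, 9774 fl and 15422 cKO H3K27ac peaks, 2099 and 3329 H3K9ac peaks, and 10199 and 9863 H3K4me3 peaks. The peak names within the list of DEK replicate 3 carry the stem Flag, unlike those of the other 2, so results resting on it are also given without it. The labelled cells were checked at the ends of 36 stem and progenitor identity genes: H3K4me3 lay at 26 in fl and 25 in cKO cells, and at 0 of 18 non-blood genes in either genotype. H3K27ac lay at 4 of the 36 in fl (not at Kit, Ly6a, Cd34 or Gata2) and at 20 in cKO cells. It was at more genes in cKO than in fl cells on the other lists too: 6 and 2 of 21 myeloid, 10 and 2 of 27 lymphoid, 8 and 4 of 23 erythroid and megakaryocyte, 6 and 0 of 20 endothelial and stromal, and 4 and 0 of 18 non-blood genes. H3K4me3 lay at 1 and 2 of the 20 endothelial and stromal genes in cKO and fl cells. The part of other cells in the differences below was not tested.

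A few members lay on an annotated transcription start, and 4 of their promoters are shown because there the DEK peak covered most of the promoter window (272 to 275 of 300 bases at Stum and Mtfr1l, 235 at Hnrnpl and Pkig). Genes whose DEK row was over 1 kb wide were not considered. Each sequence runs from 250 bases before to 50 bases after the start, 5′ to 3′ on the gene's strand, from RefSeq for GRCm38.p6 (mm10). Capitals mark the ETS motif GGAAGT and the GC box GGGCGG on either strand.

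Mtfr1l, chr4:134535219-134535518, minus strand: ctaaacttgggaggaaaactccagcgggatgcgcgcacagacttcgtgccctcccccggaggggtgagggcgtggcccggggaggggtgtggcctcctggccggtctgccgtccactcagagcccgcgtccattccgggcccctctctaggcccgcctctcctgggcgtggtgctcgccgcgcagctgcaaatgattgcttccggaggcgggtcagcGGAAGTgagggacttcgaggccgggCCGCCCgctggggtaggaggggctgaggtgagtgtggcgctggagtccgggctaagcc
Hnrnpl, chr7:28810640-28810939, plus strand: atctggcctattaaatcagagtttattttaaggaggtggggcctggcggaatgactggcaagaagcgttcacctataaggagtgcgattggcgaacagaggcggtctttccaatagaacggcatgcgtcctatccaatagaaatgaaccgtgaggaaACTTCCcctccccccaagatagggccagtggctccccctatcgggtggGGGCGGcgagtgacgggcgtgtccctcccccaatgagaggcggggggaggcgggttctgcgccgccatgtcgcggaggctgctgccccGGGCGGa
Stum, chr1:180483455-180483754, minus strand: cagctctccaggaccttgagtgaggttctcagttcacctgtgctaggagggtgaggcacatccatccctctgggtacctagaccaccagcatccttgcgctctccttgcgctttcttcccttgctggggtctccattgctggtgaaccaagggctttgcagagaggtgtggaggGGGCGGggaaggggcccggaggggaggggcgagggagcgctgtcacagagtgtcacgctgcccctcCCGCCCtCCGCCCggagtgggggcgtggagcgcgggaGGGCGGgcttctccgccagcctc
Pkig, chr2:163658136-163658435, plus strand: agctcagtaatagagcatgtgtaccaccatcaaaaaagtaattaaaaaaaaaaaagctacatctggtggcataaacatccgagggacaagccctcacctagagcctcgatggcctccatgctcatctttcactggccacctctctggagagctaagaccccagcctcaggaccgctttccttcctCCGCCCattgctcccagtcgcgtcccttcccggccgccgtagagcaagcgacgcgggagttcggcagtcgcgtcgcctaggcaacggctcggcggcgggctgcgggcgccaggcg

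Mtfr1l (a mitochondrial fission regulator relative) held 1 ETS motif and 1 GC box, Hnrnpl (an RNA-binding splicing protein) 1 and 2, Stum 0 and 4, and Pkig (an inhibitor of protein kinase A) 0 and 1. Another annotated start of Mtfr1l, not printed, has a window that the DEK peak covered over all 300 bases. That window (chr4:134535338-134535637) held neither motif, and the DEK summit lay inside it, at −147 bases from its start. Over all 32851 promoters in the RefSeq table, 23.8% held GGAAGT and 35.7% held GGGCGG, and a match of letters is not evidence of binding. The 4 sequences were GC-rich, at 70.0%, 60.0%, 66.3% and 58.7% G and C in that order, against a median of 52.7% over all promoters. At all 4 the DEK summit lay outside the H3K27ac region. Measured from the start it stood at −266 bases at Mtfr1l, −581 at Hnrnpl, −259 at Stum and −202 at Pkig. Only at Pkig was it within the printed window. The DEK peak at each came from 1 library and was weak. Its fold was 3.61, 4.94 and 3.70 in replicate 2 at Mtfr1l, Hnrnpl and Stum, and 4.65 in replicate 1 at Pkig. The other members lie mostly far from any start, and their genome sequence was not used here.

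The first comparison asked where these regions lie. They were distal: 307 of 460 (66.7%) lay outside protein-coding genes, 136 (29.6%) inside a gene body and 17 (3.70%, 95% interval 2.17 to 5.85) within 1 kb of either end of a protein-coding gene. Over all regions these shares were 29.3%, 20.5% and 50.2%. A start inside a longer annotated gene span, as at Hnrnpl, counts as gene body. Intervals are exact binomial (Clopper-Pearson) and cover counting error only. The median distance to the nearest annotated transcription start was 55292 bp for the 442 members that could be measured, against 2650 bp over all regions, and 149 of them (33.7%) lay over 100 kb away. Counted by DEK library, the share at a gene end was 6.90%, 7.25% and 2.00% in replicates 1 to 3, a mean of 5.38% ± 2.93 (SD, n = 3). All 3 libraries lay far below the 50.2% of all regions.

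Few members carried H3K4me3. A peak of this mark in either genotype overlapped 21 of 460 (4.57%, 2.85 to 6.89), against 49.5% of all regions. The 3 DEK libraries gave 6.90%, 8.70% and 2.75% (mean 6.11% ± 3.05, SD, n = 3). Promoters lie at gene ends, so the share was also taken without them. Among regions away from gene ends the share was 6 of 443 members (1.35%) against 1307 of 7598 regions with neither DEK nor H3K9ac (17.2%). In the widest class of these distal regions (595 to 2487 bp) it was 0.332% of members against 23.9% of the others. At gene ends members were not lower: 15 of 17 members had H3K4me3, against 82.6% of regions with neither peak.

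**Figure D1:**
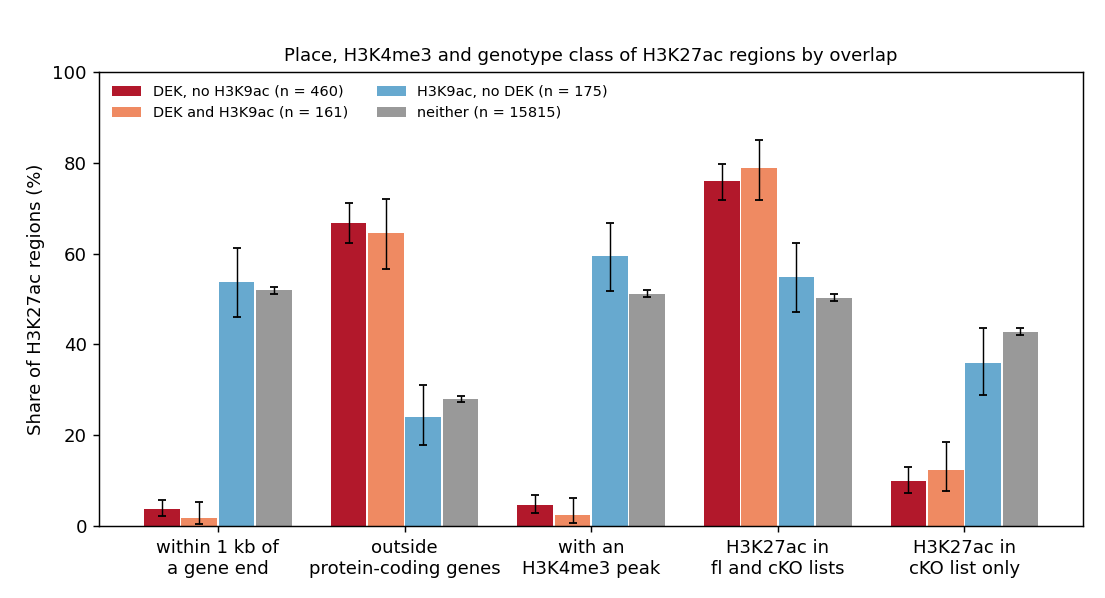
Share of H3K27ac regions (%, vertical axis) by place, H3K4me3 overlap and H3K27ac genotype class, for the 4 sets made by DEK and H3K9ac overlap. Bars are shares and whiskers 95% exact binomial intervals. The 460 regions with DEK and no H3K9ac resemble the 161 with both in lying mostly outside genes, at 66.7% and 64.6%, and both sets fall far below the other sets for gene ends and H3K4me3.

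The regions with DEK and H3K9ac were placed alike, with 1.86% at a gene end, 64.6% outside genes and 2.48% with H3K4me3. They are set beside the members here by their DEK values, as a description. The median −log10 q of their DEK peaks was 69.3, 59.0 and 12.8 in replicates 1 to 3, whereas DEK peaks in the 460 regions had medians of 3.61, 4.54 and 4.91. DEK peaks were also ranked by −log10 q within each library, with 0 the strongest and 100 the weakest. Those in the 460 regions had median ranks of 49.5, 34.4 and 37.6. Peaks outside all H3K27ac regions had 51.4, 50.5 and 52.6. DEK was found in 2 or more libraries in 72 of the 161 regions (44.7%) but in 59 of the 460 (12.8%, 9.91 to 16.2). Over all H3K27ac regions 0.789% had DEK in 2 or more, but only 3.74% had any DEK peak, which the rule asks of every member. Of the 621 H3K27ac regions with any DEK peak, 131 had DEK in 2 or more libraries.

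Most of the overlap came from replicate 3. It had a peak in 400 of the 460 regions (87.0%), replicate 1 in 58 (12.6%) and replicate 2 in 69 (15%). Replicate 3 alone gave 343 regions, replicate 1 alone 31 and replicate 2 alone 27. Replicates 1 and 2 shared 2 regions, 1 and 3 shared 17, 2 and 3 shared 32, and all 3 met in 8. The members held 2.91%, 3.39% and 6.88% of the 3 libraries' peaks, and why replicate 3 gives more was not tested. Without replicate 3, 117 regions remained. Of these 117, 7.69% lay at a gene end, 8.55% had H3K4me3 and 63.2% were in both H3K27ac lists.

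DEK summits mostly lay near an H3K27ac summit. Inside the H3K27ac region itself lay 68.4%, 75% and 94.8% of the DEK summits in replicates 1 to 3, and the rest lay outside it. The median distance from a DEK summit to the nearest H3K27ac summit was 150, 114.5 and 78 bp in replicates 1 to 3 (mean 114 ± 36.0 bp, SD, n = 3). Within 200 bp lay 66.7%, 75% and 76.6% of the DEK summits. The overlap that the rule asks for keeps these distances short. DEK folds in these regions had medians of 5.16, 5.91 and 5.84 (mean 5.64 ± 0.413). Peaks outside all H3K27ac regions had 4.96, 4.94 and 5.10 (4.997 ± 0.0901), lower in each library. DEK peaks in the regions with both DEK and H3K9ac had a higher median fold than those of the members in each library.

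**Figure D2:**
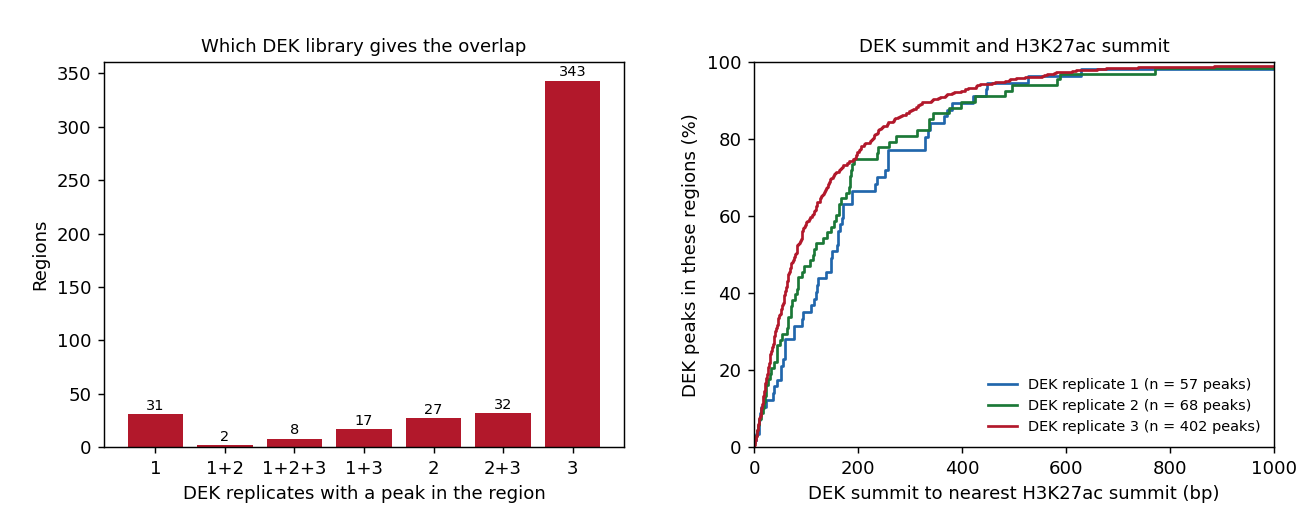
Left, number of the 460 regions (vertical axis) by which DEK replicates have a peak there. Right, cumulative share (%) of DEK peaks in these regions against the distance in bp from their summit to the nearest H3K27ac summit, 1 line per DEK replicate. Replicate 3 alone gives 343 regions, and the medians of the 3 lines lie at 150, 114.5 and 78 bp.

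The 59 regions with DEK in 2 or more libraries were all distal: 0 lay at a gene end and 0 had H3K4me3. A count of 0 among 59 still allows a share of up to 5.08%. In 57 of them the DEK peaks of the libraries overlapped each other, and the median span of their summits was 87 bp. They were wide, with a median of 947 bp, and 47 were in both H3K27ac lists, 10 in fl only and 2 in cKO only.

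Several of the highest DEK −log10 q values in this group came with H3K27ac peaks of low fold. A 368 bp region on chromosome 9 (3001936 to 3002303), 332928 bp from its nearest gene Alkbh8, had DEK −log10 q values of 667, 771 and 1540 in replicates 1 to 3 and DEK folds of 9.10, 8.75 and 12.2. Its H3K27ac fold was 3.92 in fl and 3.29 in cKO cells, under the member medians of 10.3 and 9.49, but its −log10 q placed it at ranks of 18.3 and 29.4 (0 is strongest). The DEK summit lay 1566 bp from the H3K27ac summit in each replicate, beyond the region itself. The nearest H3K9ac peak lay 403 bp from this region. A region on chromosome 10 (3116361 to 3116863), 2978 bp from 9230019H11Rik, had DEK −log10 q of 24.7, 47.9 and 111 and an H3K27ac peak in cKO cells alone, with a fold of 4.15. Another such place lay in Sfi1, which encodes a centrosome protein (chromosome 11, 3168679 to 3168981). There DEK had folds of 11.6 and 10.8 in replicates 2 and 3 and no peak in replicate 1, and H3K27ac again had a peak in cKO cells alone (fold 7.62). Near Tcte2 on chromosome 17 (13589782 to 13590116) all 3 DEK libraries had a peak, with folds of 8.20, 12.8 and 9.69, and H3K27ac was found in fl cells alone (fold 6.76). Its replicate 1 summit lay 629 bp from the H3K27ac summit, outside the 335 bp region, and the others 84 and 10 bp away. An H3K9ac peak lay 364 bp from the Tcte2 region, and 2840 and 11170 bp from the chromosome 10 and Sfi1 regions. No list of high-signal regions was applied to these places.

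Other repeated DEK regions had H3K27ac of higher fold. The region in Mpp7, a scaffold protein of cell junctions (chromosome 18, 7608881 to 7609767), ranked at 0.0195 in the cKO list, the strongest place of any member there. Its H3K27ac fold was 16.7 in cKO and 9.45 in fl cells, where it ranked at 37.8. DEK folds were 16.2 and 17.7 in replicates 2 and 3, and replicate 1 had no peak. In the gene body of Nell1, a secreted protein (chromosome 7, 50147749 to 50149158), all 3 libraries had DEK, with folds of 5.34, 6.50 and 6.24. Its H3K27ac ranked at 7.86 in fl and 61.4 in cKO cells. Wdr37 (chromosome 13, 8808652 to 8809607) was alike, with DEK folds of 6.55, 5.95 and 12.8 and ranks of 13.2 in fl and 36.6 in cKO. Nell1 and Wdr37 were named after their values had been seen.

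The next comparison asked how strong the H3K27ac was and in which genotype. Members were wide and stood high in the fl list. Their median width was 768 bp (quartiles 491 and 1005) against 520 bp over all regions. Their median rank in the fl H3K27ac list was 14.1 (quartiles 6.63 and 36.1), where all regions have 50.0 and distal regions with neither DEK nor H3K9ac 35.1. In the cKO list the median rank was 51.3 with quartiles of 7.95 and 73.6, so the members spread over the whole list. Distal regions with neither DEK nor H3K9ac had a cKO median of 55.9 (quartiles 18.8 and 80.8). Like the members, these regions thus stood higher in the fl than in the cKO list. Among distal regions without H3K9ac, DEK lay in 2.88%, 2.43% and 11.2% from the narrowest to the widest class, and the part of width was not tested.

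By genotype class, 349 members (75.9%, 71.7 to 79.7) had H3K27ac in both lists, 65 (14.1%) in fl only and 46 (10.0%) in cKO only. Over all regions the shares were 51.3%, 7.24% and 41.5%. Away from gene ends they were 76.5%, 14.7% and 8.80% of members, against 53.6%, 13.5% and 32.9% of regions with neither DEK nor H3K9ac. The fl-only share of distal members was thus close to that of other distal regions. Split by width, narrowest class first, 10.4%, 64.6% and 96.0% of distal members were in both lists. Distal regions with neither peak had 13.8%, 66.2% and 83.1%, so members were higher in the widest class alone. Split by the better of the 2 ranks, strongest class first, members had 98.9%, 60.8% and 15.3%. The others had 95.5%, 56.0% and 12.9%. The share in both lists was 53.4%, 68.1% and 80.5% by DEK library (mean 67.4% ± 13.5, SD, n = 3), so replicate 1 lay near the 51.3% of all regions. The cKO-only share was 24.1%, 14.5% and 6.25% (mean 14.96% ± 8.95), below 41.5% in each library. With the cKO list shortened to the length of the fl list, 57.8% of members and 56.1% of all regions were in both lists. At that length the members' share was close to that of all regions.

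The ranks of distal regions in the 2 genotypes were then set side by side. There were 4414 regions in both lists, away from gene ends and without H3K9ac, and 339 of them had DEK. Of the regions in the strongest 25% of both lists, 120 of 1484 (8.09%, 6.75 to 9.59) had DEK. Of those in the strongest 25% of the fl list but not of the cKO list, 147 of 678 (21.7%, 18.6 to 24.98) did. In the strongest 25% of the cKO list alone it was 6 of 512 (1.17%, 0.431 to 2.53), and in neither 66 of 1740 (3.79%, 2.95 to 4.80). The 25% limit was chosen after the ranks had been plotted, and ranks in lists of different length do not show a change in the mark.

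**Figure D3:**
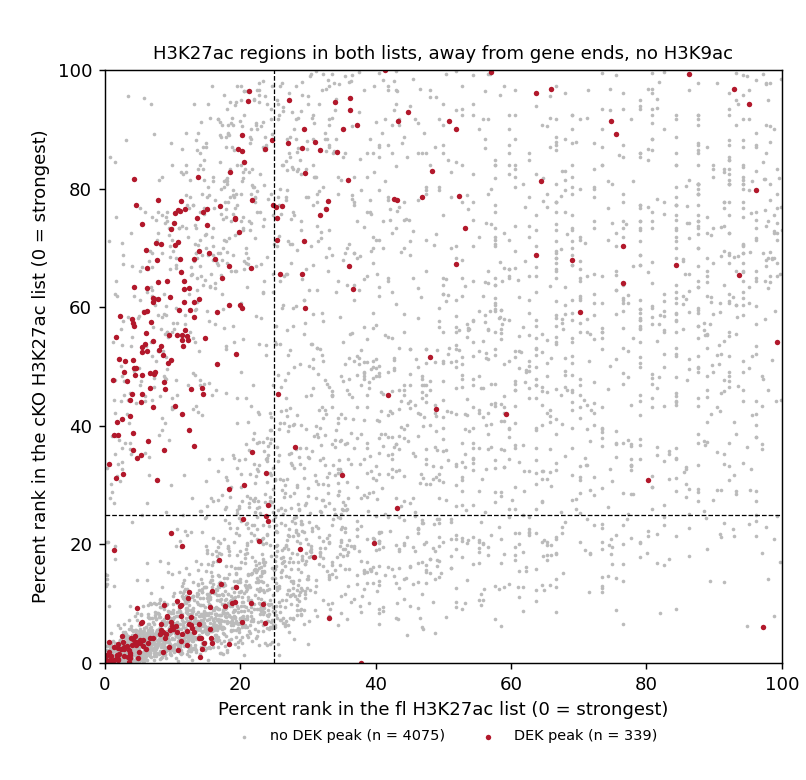
Each point is 1 of 4414 H3K27ac regions found in both genotypes, away from gene ends and without H3K9ac. Axes give its percent rank by −log10 q in the fl and the cKO list (0 is strongest), red points are the 339 with a DEK peak, and dashed lines mark 25%. Red points gather at the lower left and along the upper left, where 147 of 678 regions have DEK.

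The same shares were taken within classes of width. Among regions of 725 to 2487 bp, 102 of 208 in the strongest 25% of fl alone had DEK (49.0%, 42.1 to 56.0), against 113 of 787 in the strongest 25% of both (14.4%). Between 520 and 724 bp the shares were 36 of 273 (13.2%) and 6 of 513 (1.17%). Below 520 bp they were 9 of 197 (4.57%) and 1 of 184. Most of this came from replicate 3, which had DEK in 21.1% of the fl-alone group and 7.55% of the both group. In replicate 1 the shares were 1.77% and 0.741%, and in replicate 2 2.21% and 1.21%. Each library had the same order, but the mean of 8.36% ± 11.0 (SD, n = 3) shows how far they differ in size. With a peak of replicate 1 or 2 counted, the shares were 3.54% (2.28 to 5.22) and 1.95% (1.31 to 2.79), whose intervals overlap. Among regions of 725 to 2487 bp all 102 had a replicate 3 peak. Counting replicate 1 or 2 there gave 15 of 208 (7.21%, 4.09 to 11.6) and 29 of 787 (3.68%, 2.48 to 5.25), whose intervals also overlap.

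**Figure D4:**
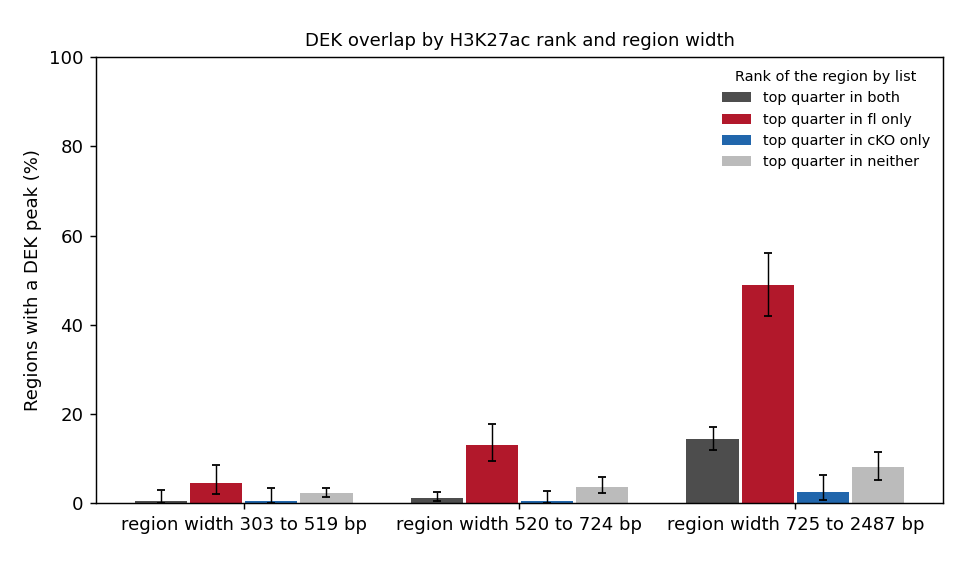
Share of regions with a DEK peak (%, vertical axis) in 3 classes of region width, for regions in the strongest 25% of both H3K27ac lists, of 1 list or of neither. Whiskers are 95% exact binomial intervals. The group in the strongest 25% of fl alone is highest in every width class, at 4.57%, 13.2% and 49.0%. Counting a peak of replicate 1 or 2 alone, its share in the widest class was 7.21%.

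Members strong in both lists had a median width of 1057 bp, and members strong in fl alone 797 bp. Regions without DEK in the same groups had 720 and 563 bp, so members were the wider in each. None of the 120 and none of the 147 had H3K4me3, against 1.17% and 1.32% of regions without DEK in the same groups. Their median H3K27ac folds were 11.2 in fl and 11.8 in cKO for the first group, where regions without DEK had 13.1 and 15.3. For the group strong in fl alone they were 12.0 and 9.50, against 12.8 and 9.33, and the choice by rank sets this order. Outside genes lay 67.5% and 76.2% of them, against 70.5% and 74.0% of regions without DEK.

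The members with the highest H3K27ac ranks were mostly found with replicate 3 alone, as were 343 of all 460 (74.6%). Near Serpinb5, a serpin of epithelia (chromosome 1, 106854675 to 106855450), the H3K27ac fold was 16.5 in fl and 17.0 in cKO cells and DEK had a fold of 5.81 in replicate 3. Near Atp10a, a phospholipid flippase (chromosome 7, 58588703 to 58589442), H3K27ac had folds of 14.9 and 17.9, with DEK at 5.04. In Dnm3, a dynamin (chromosome 1, 162338511 to 162339433), they were 14.2 and 14.3, with DEK at 5.52. These 3 places had H3K27ac among the strongest of both lists. Their DEK folds lay below 5.84, the median of replicate 3 peaks in the 460 regions. Replicate 3 peaks outside H3K27ac regions had a median of 5.10.

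Nox4, an NADPH oxidase (chromosome 7, 87376735 to 87377603), had a stronger replicate 3 peak, with a DEK fold of 9.06 and H3K27ac folds of 15.2 and 14.5. Another DEK library joined replicate 3 in Lcorl and in an olfactory receptor gene. Lcorl (chromosome 5, 45847800 to 45848746) had DEK folds of 4.22 in replicate 1 and 8.54 in replicate 3. Olfr631 (chromosome 7, 103921422 to 103922334) had 4.19 in replicate 2 and 10.7 in replicate 3. Kcnc2, a potassium channel gene, and the surroundings of Tm2d3 were also among the 10 strongest, with DEK folds of 5.15 and 4.74 in replicate 3.

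Members found in 1 genotype were narrower and weaker. The median width was 336.5 bp for the 46 in cKO only and 373 bp for the 65 in fl only, against 880 bp for those in both. Their median ranks were 83.3 in the cKO list and 61.5 in the fl list. Of the cKO-only members, 7 lay at gene ends and 9 had H3K4me3, whereas 0 of the 65 fl-only members did either, which allows up to 4.62%. Among regions with neither DEK nor H3K9ac the contrast ran the same way, with 63.0% of cKO-only and 7.58% of fl-only regions at gene ends. The 7 cKO-only members at gene ends were 15.2% of theirs, and this difference was not tested. Ranked highest among the cKO-only members was Mtfr1l, whose promoter is shown above (H3K27ac fold 11.4, rank 20.6). Coq8b, a kinase of coenzyme Q synthesis, followed with a fold of 13.8, then Pkig with 13.8 and Rps6, a protein of the small ribosomal subunit, with 11.5. A place 117930 bp from Tle3, a Groucho corepressor, had 11.9 and was the distal 1 of these 5. Of all 46 cKO-only members, 39 lay away from gene ends.

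The leading fl-only members were distal. They lay in Sntg1, a syntrophin (H3K27ac fold 13.0, rank 18.2), 24213 bp from the vomeronasal receptor gene Vmn1r72 (10.2, rank 21.3), 155697 bp from the amino acid transporter gene Slc6a15 (12.5, rank 21.9) and in Gm6351 (9.27, rank 26.1). All 4 had DEK in replicate 3 alone, with folds between 4.99 and 5.84. Replicate 3 alone gave 45 of all 65 fl-only members (69.2%).

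The 17 members at gene ends stood lower in the fl list than the distal ones. Their median rank was 58.3 in the fl list (10 measured) and 30.4 in the cKO list (17 measured). Gene-end regions with neither DEK nor H3K9ac had the same order, at 64.9 and 47.0. DEK there came from 1 library each. Msh3, a mismatch repair protein, had H3K27ac folds of 10.2 in fl and 17.1 in cKO with a DEK fold of 3.62 in replicate 1. Ndel1, a dynein partner, had 11.7 and 13.4, with DEK at 4.47 in replicate 3. Impa2, an inositol phosphatase, had 7.19 and 13.7, with DEK at 3.58 in replicate 3. Ece1, the endothelin-converting enzyme, had 8.77 and 14.3, with DEK at 5.91 in replicate 1. Except at Ece1 these DEK folds lay below the medians of 4.96 and 5.10 of peaks outside H3K27ac regions in replicates 1 and 3.

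The nearest genes were many. The 460 regions had 424 distinct nearest protein-coding genes: 391 had 1 member, 30 had 2 and 3 had 3. These 3 were Brinp1, Lrfn5 and Ppargc1a, and all 9 of their members lay outside genes, at distances from 152633 bp to 1261630 bp. Among members within gene bodies the gene was long, with a median span of 198 kb against 103 kb for gene-body regions with neither peak. Genes over 200 kb made up 67 of 136 (49.3%) against 33.7%. Olfactory or vomeronasal receptor genes were nearest to 11 members (2.39%) and to 1.25% of the regions with neither peak.

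Of 225 genes on 9 lists of blood, signalling and control genes, 7 had a member within 50 kb. Counted by region, 7 of 231 regions near list genes were members (3.03%), against 268 of 13596 near any protein-coding gene (1.97%). Stem and progenitor identity gave 3 of 36 genes (Mecom, Hlf and Gata2) and 3 of 48 regions (6.25%). Lymphoid genes gave 1 of 27 (Cd69) and 1 of 20 regions, and AKT, mTOR and cell cycle genes 3 of 35 (Akt2, Ccnb2 and Cdkn1a) and 3 of 49 regions (6.12%). By gene, 257 of all 20665 had a member. Myeloid, erythroid and megakaryocyte, acetylation, immediate early, endothelial and stromal, and non-blood lists gave 0.

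The Mecom region was the strongest of these. Mecom encodes the stem cell transcription factor EVI1, and the 1479 bp region in its gene body (chromosome 3, 30029953 to 30031431) had H3K27ac folds of 7.72 in fl and 9.19 in cKO cells, at ranks of 15.5 and 5.80. DEK had a peak in replicate 2 alone, with a fold of 5.90. Near Hlf, another stem cell transcription factor, a place 25028 bp away had H3K27ac folds of 7.69 and 9.33 and DEK at 4.79 in replicate 3. Near Cd69, an early activation receptor of lymphocytes, a place 32742 bp away had 8.77 and 11.2, with DEK at 3.58 in replicate 3.

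The remaining 4 list genes rest on DEK rows of replicate 3 that differ in form from the others. Those at Akt2 (a kinase of growth signalling), Gata2 (a stem cell transcription factor), Ccnb2 (cyclin B2) and Cdkn1a (the cell cycle inhibitor p21) were 1871, 1102, 1233 and 1193 bp wide, where the median of that list was 226 bp. The Akt2 row had a score that did not follow from its −log10 p as in other rows and stood out of coordinate order, and the Gata2 row was 1 of a pair out of order. DEK folds were 4.22, 6.75, 3.58 and 5.04. Without the rows at Akt2 and Gata2, 458 members remained. How these rows arose was not tested.

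Close to the rule's limits, the smallest DEK overlap of a member was 7 bp and 9 members overlapped by under 50 bp, while the median overlap was 301 bp. Just outside, 24 regions without H3K9ac had a DEK peak within 100 bp but no overlap. The nearest H3K9ac peak to a member lay 107 bp away, 6 members had one within 1 kb, and the median distance was 195518 bp. Members were scattered: the median distance to the next member was 1760600 bp, and 16 had another within 10 kb. By chromosome, the share of H3K27ac regions that were members ran from 1.68% on chromosome 11 to 4.09% on chromosome 3.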

How the data were processed

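The authors deposited 1 CUT&Tag peak list per library. Bowtie2, Picard and MACS2 were used with mm10, per the submitters' processing notes. Versions, thresholds, control tracks and read depth are unknown (not given in the sources used here). No list of high-signal regions was applied. The deposited fold is a ratio of the summit over local background. Each peak has a deposited −log10 of its p-value, a deposited −log10 of its q-value and a deposited score, a whole number that is 10 times the former except in a few irregular DEK rows. Ranks and filters were taken inside a single list. Folds of fl and cKO cells are printed side by side, and medians of DEK fold were averaged over the 3 libraries. No scaling between libraries was done, so these folds do not show a change in height.

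Rows with a dot as strand mark were kept, also 2 members' rows of irregular form, and the result without them is an alternative chosen after seeing the data. H3K27ac peaks were merged and overlaps taken at 1 bp. Place came from 20665 protein-coding RefSeq genes of GRCm38.p6 on chromosomes 1 to 19, with windows of 1 kb at both gene ends. Starts came from the RefSeq promoter table, and members without an entry on their chromosome have no such distance. Ranks are 100 times the rank by −log10 q over the list's length. Members, gene lists and the naming rules (strongest H3K27ac, DEK in 2 or more libraries, leading members of 1 genotype, gene ends with H3K4me3, list genes) were chosen with earlier results of these data known. Some members that the rules select are not reported here. The planned look at sequence around summits was not run, since no genome was used here. With 1 library per mark and genotype no test was run. Merging and overlap were tested against bedtools on simulated data. Scripts ran under Python 3.11.15 (matplotlib 3.10.9, scipy 1.17.1, pandas 2.3.3, numpy 2.4.6).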

Additional observations from a re-analysis of the deposited data

Results flagged for a closer look

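Chromosomes X and Y lie outside the 460 regions, and the same rule applied there found H3K27ac regions with DEK and no H3K9ac. They are given because no comparison above uses them. On chromosome X there were 52 of 835 regions (6.23%), where the highest autosomal share was 4.09%. On chromosome Y there were 3 of 216 (1.39%). The cause was not tested.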

How the results depend on the processing

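The number of regions fell from 460 to 225 with DEK peaks of −log10 q of at least 5, and ranged from 117 to 433 when 1 DEK library was left out (117 without replicate 3). The share at gene ends was 0.444% at that q, 1.71% with the DEK summit inside the region, 1.72% with at least 50% of the DEK peak inside, and 2.77% to 7.69% with a library left out. The share with H3K4me3 was 1.78%, 1.71% and 1.72% under the same settings and 3.46% to 8.55% with a library left out. The share in both H3K27ac lists was 81.5% and 82.0% under the overlap settings, 57.8% with the cKO list at the fl length, and 63.2% to 78.6% with a library left out. The share with DEK in 2 or more libraries was 5.77% to 9.32% with a library left out, since fewer libraries can then meet. The median fl rank stayed between 12.7 and 15.5. Relative to all regions, gene ends were lower in 15 of 15 settings, H3K4me3 lower in 14 of 14 and both lists higher in 14 of 14, although with the cKO list at the fl length the latter gap was 57.8% against 56.1%. The cause of these shifts was not tested. No paired analysis was possible because each mark has 1 library per genotype and DEK was profiled in fl cells alone. Depth is unknown, so absence of a peak does not show absence of the protein or mark.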
